A study of Mus musculus with 27 samples.

Results

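Broad H3K4me3 domains are stretches of the mouse genome where nucleosomes carrying trimethylated lysine 4 of histone H3 are recovered over several kilobases without a break. They were found in mouse embryonic fibroblasts (MEFs), pre-induced pluripotent stem cells (pre-iPSCs) and induced pluripotent stem cells (iPSCs) as runs of at least 4 neighbouring 1-kb windows on the autosomes, where every window held at least 15 H3K4me3 reads in both libraries of a cell type. Members were thus chosen by their H3K4me3 reads, which are described here and not tested. By this rule 1820 domains were found for MEFs, 565 for pre-iPSCs and 444 for iPSCs, out of 14907, 17193 and 18918 runs of any length. Domains of the 3 cell types that shared a window were merged, which left 2319 merged domains.

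The cells were compared at 3 stages of reprogramming. MEFs came from E13.5 mouse embryos hemizygous for an Oct4-GFP transgene and a Rosa26 allele, whose mothers were 129Sv/Jae, and both reprogrammed cell types were made from such MEFs by retroviral delivery of Oct4, Sox2, Klf4 and c-Myc. The pre-iPSCs were stable clones that had stopped short of the iPSC state and the iPSCs were the lines that correspond to them, and the clone behind each library is not given in the sources used here. Each cell type had 2 libraries each of micrococcal nuclease (MNase) digested chromatin precipitated with antibodies to H3, H3K4me3 and H3K27me3, 1 library of H3K9me3 and 2 libraries of RNA. Pre-iPSCs and iPSCs were grown on MEF feeders with serum and leukemia inhibitory factor, and whether feeder cells were removed is not given in the sources used here. For RNA, MEFs were used within 3 passages and the other cells after 6. MEF chromatin was digested with another amount and time of MNase, so cell type and digestion cannot be told apart. The labels of the replicate 1 chromatin libraries name a CBA/CaJ and C57BL/6J background, and those of replicate 2 name none. The study's methods give that background for the fathers of the MEFs and name no difference in strain between replicates. The study's methods call the libraries biological replicates, while the labels do not tie them to separate cultures or clones, so p-values measure the spread between these libraries.

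H3K4me3 is laid down at active and CpG-rich promoters by the Mll and Setd1 complexes, and most promoters carry it over a short stretch around the transcription start site (TSS). Stretches that run far into the gene body are known from genes of cell identity and from genes that are transcribed at a high rate. H3K27me3, the mark of Polycomb repressive complex 2, can lie over the same promoters, and such bivalent promoters are typical of developmental regulators in pluripotent cells.

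The 200 bases before the TSS are printed for 8 genes that carry the patterns described below. Nr2f2 and Acta2 lay under domains of MEFs, Fads3 under a MEF domain with more H3K27me3 in the other cell types, Myc under a domain in all 3, Pou5f1 and Fgf4 under domains of pre-iPSCs and iPSCs, and Nptx1 and Hmx2 under domains with H3K27me3, that of Nptx1 in pre-iPSCs and iPSCs and that of Hmx2 in iPSCs. Sequences are from the mm9 build, read 5′ to 3′ on the strand of the gene, with each CpG in capitals. The positions are Nr2f2 (chr7:77505480-77505679, minus strand), Acta2 (chr19:34329827-34330026, minus strand), Fads3 (chr19:10115838-10116037, plus strand), Myc (chr15:61816696-61816895, plus strand), Pou5f1 (chr17:35642777-35642976, plus strand), Fgf4 (chr7:152047091-152047290, plus strand), Nptx1 (chr11:119409135-119409334, minus strand) and Hmx2 (chr7:138697376-138697575, plus strand), and none of these stretches overlapped an annotated exon.
Nr2f2: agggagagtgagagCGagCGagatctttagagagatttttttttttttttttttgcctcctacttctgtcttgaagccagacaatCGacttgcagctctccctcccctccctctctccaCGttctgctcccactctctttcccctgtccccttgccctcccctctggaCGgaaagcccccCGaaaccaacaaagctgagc
Acta2: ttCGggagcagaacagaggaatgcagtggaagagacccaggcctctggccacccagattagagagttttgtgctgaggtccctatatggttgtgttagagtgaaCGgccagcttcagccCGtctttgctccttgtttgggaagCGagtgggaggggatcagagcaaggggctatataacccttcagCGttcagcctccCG
Fads3: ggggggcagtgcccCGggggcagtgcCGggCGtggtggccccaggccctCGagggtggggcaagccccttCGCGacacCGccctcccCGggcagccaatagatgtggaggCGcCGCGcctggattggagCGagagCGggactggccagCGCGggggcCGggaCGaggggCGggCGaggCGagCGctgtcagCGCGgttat
Myc: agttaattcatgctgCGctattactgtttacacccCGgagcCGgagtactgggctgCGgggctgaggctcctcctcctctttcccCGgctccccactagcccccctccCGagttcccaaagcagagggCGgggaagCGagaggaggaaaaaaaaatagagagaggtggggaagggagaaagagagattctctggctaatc
Pou5f1: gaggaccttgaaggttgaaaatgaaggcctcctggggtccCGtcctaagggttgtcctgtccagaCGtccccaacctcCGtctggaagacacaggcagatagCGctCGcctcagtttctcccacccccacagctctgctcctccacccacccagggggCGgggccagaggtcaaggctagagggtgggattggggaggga
Fgf4: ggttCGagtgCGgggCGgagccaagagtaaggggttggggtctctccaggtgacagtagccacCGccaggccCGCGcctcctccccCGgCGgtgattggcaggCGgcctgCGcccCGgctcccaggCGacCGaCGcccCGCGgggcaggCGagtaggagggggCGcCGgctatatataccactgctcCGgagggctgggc
Nptx1: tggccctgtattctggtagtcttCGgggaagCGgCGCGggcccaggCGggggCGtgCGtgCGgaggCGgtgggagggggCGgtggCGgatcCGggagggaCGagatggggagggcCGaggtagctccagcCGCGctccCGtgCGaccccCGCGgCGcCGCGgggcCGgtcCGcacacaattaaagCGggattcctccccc
Hmx2: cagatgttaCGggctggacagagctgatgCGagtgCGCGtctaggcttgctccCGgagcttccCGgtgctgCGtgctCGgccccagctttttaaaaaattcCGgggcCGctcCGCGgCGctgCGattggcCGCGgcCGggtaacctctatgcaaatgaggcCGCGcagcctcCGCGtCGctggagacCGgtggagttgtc
These stretches held from 6 CpG (Nr2f2, Acta2 and Pou5f1) through 8 (Myc), 20 (Fgf4) and 23 (Fads3 and Hmx2) to 26 (Nptx1). Over all 19300 autosomal promoters the median was 10 CpG. Nptx1 thus had more CpG than 91.8% of promoters, while Acta2 and Nr2f2, with broad MEF domains, had more than 37.3% only.

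The libraries were of like depth, with 11632153 to 12829008 autosomal H3K4me3 reads in called nucleosomes, but they were not enriched alike. Windows at or over the threshold in both libraries held 7.83% and 6.31% of the reads of the MEF libraries, 4.44% and 4.42% for pre-iPSCs and 4.68% and 4.43% for iPSCs. Cell type markers followed the labels in MEFs and iPSCs: the summed FPKM (fragment counts scaled by transcript length and library size) of 7 fibroblast genes was 4287 and 4183 for MEFs, 287 and 92.5 for pre-iPSCs and 202 and 234 for iPSCs. Among 6 pluripotency markers, the pre-iPSCs had reads of Pou5f1 and Sox2, but Nanog stood at 0.519 and 0, Zfp42 at 0 and 0.0837 and Esrrb at 0.0188 and 0.0335. Dppa5a stood at 1.70 and 5.01 in pre-iPSCs, against 0 and 0.321 in MEFs. In iPSCs Nanog stood at 49.5 and 73.6, Zfp42 at 56.0 and 63.9, Esrrb at 52.5 and 52.5 and Dppa5a at 725 and 842. Oct4 and Sox2 were also delivered by retrovirus, and their reads cannot be told apart from those of the genes here. None of the marker genes Nanog, Sox2, Zfp42, Esrrb and Dppa5a had a domain in any cell type.

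Most domains were only just broad. The shortest allowed length of 4 windows made up 1059 of the MEF domains (58.2%), 360 in pre-iPSCs (63.7%) and 290 in iPSCs (65.3%), and domains covered 8646, 2708 and 2138 kb. Domains held 2.40% and 1.96% of the H3K4me3 reads for MEFs, 0.602% and 0.592% for pre-iPSCs and 0.529% and 0.492% for iPSCs. The larger number in MEFs thus came with a larger share of reads in marked windows. In an alternative chosen after seeing the data, the 25435 windows with the most reads in the weaker library, after scaling to equal depth, were taken in each cell type, which gave 1197 domains for MEFs, 565 for pre-iPSCs and 418 for iPSCs.

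Many runs lay next to the limits of the rule. The weakest window held exactly 15 reads in 570 MEF, 274 pre-iPSC and 233 iPSC domains, and a limit of 14 reads would have given 2253, 867 and 780 domains. Just inside were the 4-window domain over Ucp2, a mitochondrial carrier, in MEFs (77 and 71 reads) and that over Bmpr1a, a BMP receptor, in pre-iPSCs (66 and 71 reads). Just outside were a 4-window run over Dolk and Nup188 in MEFs (158 and 120 reads, weakest window 14) and one over Mcm5, a replication helicase subunit, in iPSCs (148 and 89 reads, weakest window 14). A further 2415, 1151 and 1010 runs were 1 window too short.

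**Figure D1:**
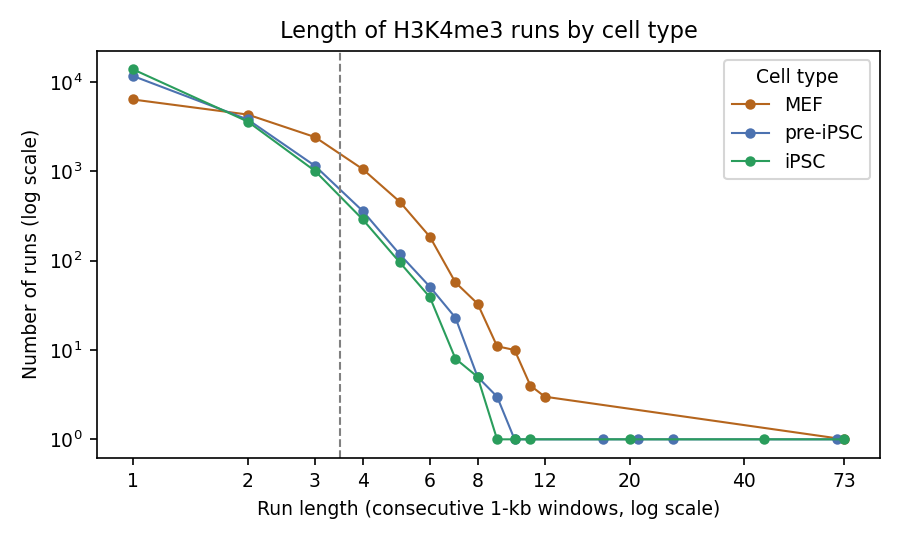
Number of H3K4me3 runs (y, log scale) by length in consecutive 1-kb windows (x, log scale) for MEFs, pre-iPSCs and iPSCs, with the dashed line at the limit between narrow runs and domains. MEFs have fewer runs of 1 window (6360 against 11680 and 13860) and more of every length from 2 to 8 windows, and single runs reach 73 windows.

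Before the domains are read as chromatin, a set of 40 merged domains has to be set apart, because total H3 was high there. In these domains H3 was at least 2 times the mean window in both libraries of a cell type that had the domain. The longest run of all, 73 windows over Sfi1, a centrosome gene on chromosome 11, held 17.3 to 24.6 times the mean window in the H3 libraries and 20.1 to 38.8 times in the H3K4me3 libraries. H3K9me3, H3K27me3 and H3K4me3 thus stood high together over Sfi1, and the same held for the runs around Ugt1a1, Heatr7b1 and Hjurp on chromosome 1 and for runs without a RefSeq TSS at the start of chromosome 9. Where these extra reads came from was not tested.

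The run of 21 windows around Pou5f1, which encodes Oct4, belongs to the same set and differed between the MEF libraries. Over chr17:35634001-35655000, which also holds the TSSs of Tcf19 and Cchcr1, H3 stood at 12.4 times the mean window in replicate 1 of MEFs but 0.932 in replicate 2, 22.9 and 11.9 for pre-iPSCs and 13.4 and 9.98 for iPSCs. H3K4me3 stood at 11.1 and 1.46 for MEFs, 21.2 and 16.9 for pre-iPSCs and 17.9 and 19.8 for iPSCs. H3K27me3 stood at 10.4 and 1.46, 9.24 and 9.03, and 5.85 and 5.07. MEF replicate 2 was the lowest library with each of these 3 antibodies, and the order of the other libraries differed between antibodies. The MEF H3K9me3 library has a title without a replicate mark, like those of replicate 1. It stood at 0.949 and so was close to the replicate 2 libraries and not to those of replicate 1. The labels name an Oct4-GFP transgenic allele in these cells, and whether its copies gave these reads was not tested, so the width of the Pou5f1 domain is not comparable with that of other domains.

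**Figure D2:**
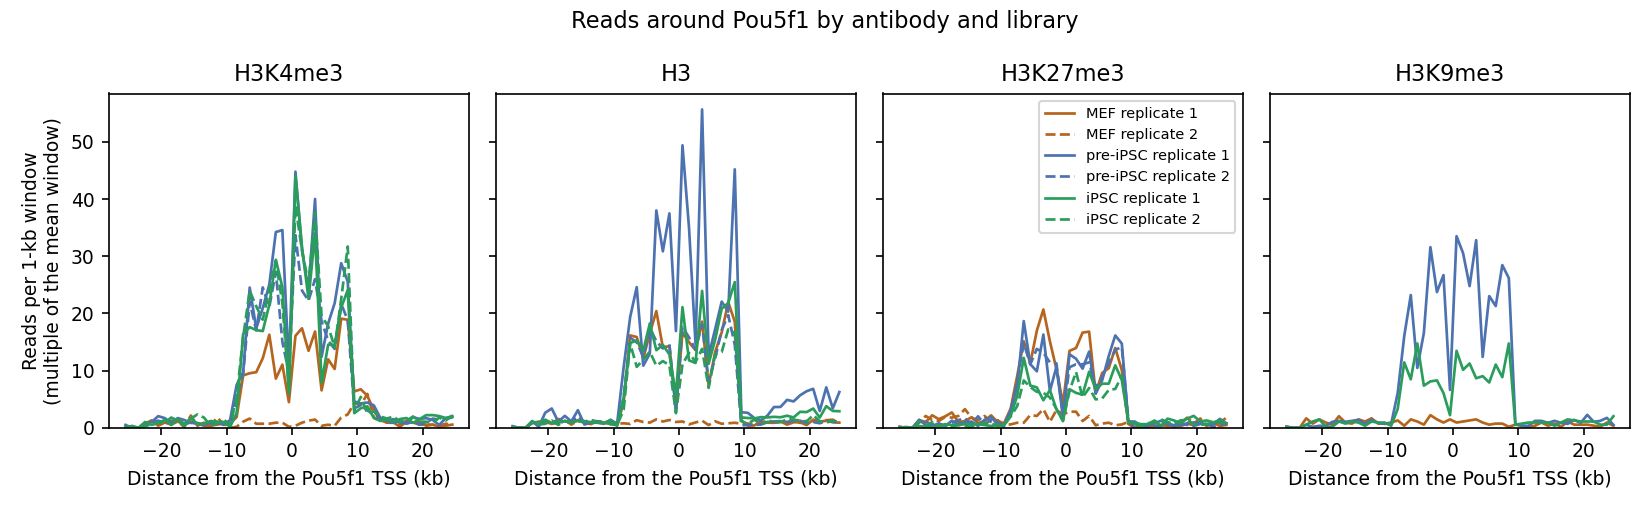
Reads per 1-kb window, as multiples of the mean window of each library (y), by distance from the Pou5f1 TSS in kb (x), in 1 panel per antibody, with solid lines for replicate 1 and dashed lines for replicate 2. Over the 21-window domain the 4 pre-iPSC and iPSC libraries of H3 sit at 9.98 to 22.9 times and MEF replicate 2 at 0.932.

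Domains lay over genes more often than narrow runs of 1 to 3 windows did. A RefSeq TSS lay in 85.3% of the MEF domains, 64.2% of the pre-iPSC domains and 66.9% of the iPSC domains, against 49.5%, 29.8% and 29.2% of narrow runs, which are also shorter. They covered 1870, 435 and 347 genes, and 307, 69 and 49 domains held more than 1 TSS. Of domains with a single TSS, most reached further into the gene than upstream of it, 92.1% for MEFs, 81.3% for pre-iPSCs and 76.2% for iPSCs (82.0%, 76.1% and 75.03% of narrow runs). The median MEF domain reached 3.32 kb downstream of the TSS and 1.10 kb upstream, and the median iPSC domain 2.93 and 1.29 kb.

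CpG density was lower in domains than in narrow runs for MEFs and higher for the other cells. The median was 3.35 CpG per 100 bases in MEF domains and 3.57 in narrow MEF runs, 3.20 and 2.73 for pre-iPSCs, and 3.80 and 3.10 for iPSCs. At nearly equal length, domains of 4 windows lay slightly below runs of 3 windows in every cell type. These medians were 3.575 and 3.67 for MEFs, 3.39 and 3.63 for pre-iPSCs, and 3.85 and 4.00 for iPSCs. Promoters under MEF domains had a median of 17 CpG in the 200 bases before the TSS, those under narrow runs 15 and those without a marked window 3. The step in CpG thus lay between marked and unmarked promoters far more than between domains and narrow runs.

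Few domains were shared. Of the 2319 merged domains, 1443 (62.2%) were found in MEFs only, 244 (10.5%) in pre-iPSCs only and 207 (8.93%) in iPSCs only. A further 190 were found in MEFs and pre-iPSCs, 107 in MEFs and iPSCs, 48 in pre-iPSCs and iPSCs and 80 in all 3. Of the MEF domains, 10.3% were also broad in iPSCs, and of the iPSC domains, 42.3% were also broad in MEFs.

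Most domains that were not broad in another cell type were narrower marked runs there. In iPSCs 187 of the MEF domains were broad, 1455 were narrow and 178 had no passing window, and in pre-iPSCs these numbers were 270, 1418 and 132. Of the iPSC domains 188 were broad in MEFs, 189 were narrow and 67 had no passing window, and of the pre-iPSC domains 271, 228 and 66. The median H3K4me3 of the MEF-only domains was 5.58 and 4.45 times the mean window for MEFs, 2.89 and 2.96 for pre-iPSCs and 2.71 and 2.84 for iPSCs. The iPSC-only domains differed less between cell types, with 3.23 and 2.77 for MEFs, 3.15 and 2.91 for pre-iPSCs and 3.80 and 3.57 for iPSCs.

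**Figure D3:**
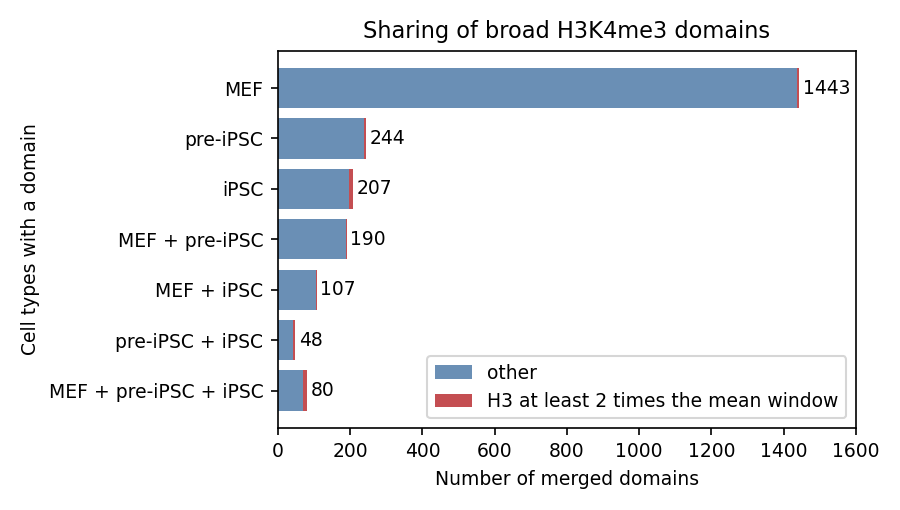
Number of merged domains (x) by the cell types in which they were found (y), with the part of each bar in red for domains with H3 at least 2 times the mean window. MEF-only domains number 1443 and domains found in all 3 cell types 80, of which 10 are in red.

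The longest MEF domains outside the set of high H3 included transcription factors and genes of the matrix and cytoskeleton. Meis2, a homeodomain cofactor of Hox proteins, and Nr2f2, an orphan nuclear receptor of mesenchyme, each had 12 windows. Over the Nr2f2 domain there were 307 and 227 H3K4me3 reads for MEFs, 190 and 212 for pre-iPSCs and 150 and 161 for iPSCs, so all 3 cell types kept reads while only MEFs held every window over the threshold. Its FPKM was 14.5 and 14.3 for MEFs, 10.1 and 4.42 for pre-iPSCs and 0.742 and 1.11 for iPSCs. Tpm1 (tropomyosin) and Col1a1 (a collagen I chain) had 11 windows, and Myh9 (non-muscle myosin) and Wnt5a, a secreted signal, had 10. The Col1a1 domain held 338 and 250 reads for MEFs, 122 and 113 for pre-iPSCs and 146 and 142 for iPSCs, as a description of the reads that chose it.

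Tpm1 was also highest in MEFs in RNA, with an FPKM of 3053 and 2526 for MEFs, 125 and 157 for pre-iPSCs and 71.4 and 113 for iPSCs. Brd2, a bromodomain reader of acetylated histones, had 11 windows in MEFs and 350 and 311 reads there, 233 and 205 for pre-iPSCs and 256 and 240 for iPSCs. Its RNA did not follow, with an FPKM of 66.2 and 30.7 for MEFs, 62.0 and 43.0 for pre-iPSCs and 84.4 and 78.5 for iPSCs. The groups overlap between MEFs and pre-iPSCs, and no comparison of Brd2 passed the test.

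The longest domains of the other cells that lacked high H3 were shorter. In pre-iPSCs they covered Gabbr1, a GABA receptor subunit (9 windows), and Spry4, an inhibitor of Fgf signalling, Baiap2 and Thra (8 windows each). The Gabbr1 domain held 257 and 192 reads in pre-iPSCs, 156 and 127 in MEFs and 161 and 180 in iPSCs. In iPSCs they covered Glo1, which detoxifies methylglyoxal (10 windows), Slc2a1, the glucose transporter Glut1 (8 windows), and Erf, Midn and the pair Nek8 and Tlcd1 (7 windows each). Glo1 came close to the high H3 set, with H3 at 2.04 and 1.73 times the mean window in iPSCs. It missed the limit of 2 in replicate 2 only, and the median iPSC domain had 2.11 and 0.821. Slc2a1 held 164 and 199 reads in iPSCs, 174 and 245 in pre-iPSCs and 146 and 134 in MEFs. Zic2, a zinc finger factor of neural and primed pluripotent cells, had 7 windows in iPSCs, and its merged domain held 179 and 158 reads there, 198 and 176 in pre-iPSCs and 111 and 84 in MEFs.

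The 70 merged domains found in all 3 cell types and without high H3 included Myc, one of the reprogramming factors. Myc held 209 and 181 reads for MEFs, 208 and 237 for pre-iPSCs and 206 and 240 for iPSCs over 7 windows, close to the same level in all. Other members, given as examples chosen after their values were seen, were the ribosomal protein genes Rps10, Rps28 and Rpl12, the nucleolar gene Ncl, the amino acid transporter genes Slc3a2 and Slc7a5, the cell cycle inhibitor Cdkn1a, the survival factor Mcl1 and the TGF-beta pathway genes Smad3, Smad6, Smad7 and Tgif1. Mcl1 had 201 and 165 reads for MEFs, 135 and 130 for pre-iPSCs and 145 and 138 for iPSCs. Its MEF libraries were thus the highest, while over Ncl (160 and 125, 125 and 110, and 119 and 104) MEF replicate 2 and pre-iPSC replicate 1 had equal reads.

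Gene lists chosen for this system showed where domains were common. Domains in MEFs covered 16 of 36 extracellular matrix and fibroblast genes, against 0 in pre-iPSCs and 1, Tgfb1, in iPSCs. Of 86 mesenchymal transcription factors 27 had a domain for MEFs, 7 for pre-iPSCs and 4 for iPSCs. Of 29 housekeeping genes of translation and the cytoskeleton 16, 4 and 5 did, and of 27 immediate early genes, which respond within minutes to serum, 14, 5 and 3. As MEF domains covered 1870 of 19300 genes and iPSC domains 347, these shares are a description and were not tested.

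Of 26 pluripotency regulators, 3 had a domain in iPSCs, 1 in pre-iPSCs and 2 in MEFs, where 347, 435 and 1870 of all 19300 genes did. The 3 were Pou5f1 in the high H3 set, Mycn (4 windows in MEFs and 5 in iPSCs) and Jarid2, a Polycomb cofactor (4 windows in each of the same). Over Mycn the reads were alike in all cells, 141 and 91 for MEFs, 143 and 89 for pre-iPSCs and 136 and 96 for iPSCs, while its FPKM was 0.623 and 0.271, 16.0 and 0.615, and 46.7 and 40.02. Mycn was higher in iPSCs than in MEFs (log2 change 4.94 ± 0.76 SE, limma adjusted p = 0.00446), and the pre-iPSC libraries lay far apart.

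Signalling genes of the Nodal, Fgf and LIF pathways had 8 of 23 members under a domain in some cell type, where 2219 of all 19300 genes did. The ligand Fgf4 had 5 windows in pre-iPSCs and 4 in iPSCs, with 38 and 37 reads for MEFs, 103 and 117 for pre-iPSCs and 97 and 92 for iPSCs. The ligand Fgf8 had 5 windows in iPSCs only, with 55 and 50, 47 and 65, and 112 and 83 reads. Il6st, the receptor chain shared by LIF and interleukin 6, had 5 windows in MEFs, with 139 and 121, 64 and 91, and 69 and 76 reads, and the receptor Fgfr1 had 4 windows in every cell type. Fgf4 was thus broad in both reprogrammed cell types, Fgf8 in iPSCs and Il6st in MEFs.

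Of 24 epithelial genes 4 had a domain in iPSCs, where 347 of all 19300 genes did, 0 in pre-iPSCs and 1 in MEFs. Cdh1 (E-cadherin) had 4 windows in iPSCs, with 60 and 61 reads for MEFs, 74 and 67 for pre-iPSCs and 105 and 68 for iPSCs. The other iPSC domains were over Crb3, a polarity gene, and over Esrp1 and Esrp2, splicing factors of epithelia. The replicate 2 levels of pre-iPSCs and iPSCs were close, at 67 and 68 reads over Cdh1 and 64 and 80 over Esrp1.

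Genes that write or read the histone marks also had domains, where 1870, 435 and 347 of all 19300 genes had one in MEFs, pre-iPSCs and iPSCs. Of 17 H3K4 methylation and demethylation enzymes, Mll1, Mll2, Kdm5a and Wdr82 had a domain in MEFs, and Mll2 also in pre-iPSCs. Of 26 Polycomb genes 6 had one in MEFs, 1 in pre-iPSCs (Phc1) and 4 in iPSCs. Eed, a core subunit of Polycomb repressive complex 2, had 5 windows in MEFs with 137 and 152 reads, against 88 and 72 for pre-iPSCs and 68 and 92 for iPSCs. Cbx8, a chromodomain subunit of repressive complex 1, had 6 windows in iPSCs only, where its FPKM was 0.361 and 0.888, below its 2.57 and 3.43 in MEFs.

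Of 39 Hox genes, 11 had a domain in some cell type, where 2219 of all 19300 genes did, 5 for MEFs, 6 for pre-iPSCs and 5 for iPSCs. Hoxc9 had 9 windows in MEFs, with 208 and 202 reads, 178 and 131 for pre-iPSCs and 172 and 143 for iPSCs. Hoxa3 and Hoxa6 shared a merged domain of 7 windows found in MEFs and pre-iPSCs. Of 35 neural and germ layer regulators, 8 had a domain, among them Zic2 and Otx1 in iPSCs, Gata2 in MEFs and iPSCs, Pax7 and Cdx2 in pre-iPSCs and iPSCs, and Sox11 in MEFs.

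Genes with a TSS under a domain had higher FPKM than genes with a narrow run, by a margin that differed between cell types. In MEFs the median FPKM was 21.9 and 16.9 under domains, 7.60 and 6.36 under narrow runs and 0 without a marked window. In pre-iPSCs it was 15.6 and 14.2, 8.16 and 7.24, and 0.277 and 0.227. In iPSCs it was 7.86 and 6.50, 5.69 and 5.58, and 0.405 and 0.482. Under iPSC domains 77.2% and 76.7% of genes passed 1 FPKM, against 76.6% and 77.4% under narrow runs, while in MEFs the shares were 97.0% and 94.4% against 82.2% and 80.4%. These medians describe each cell type's own libraries and were not tested.

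MEF domains of 5 or more windows had a higher median FPKM than those of 4. In MEFs the median was 18.4 and 14.1 for 4 windows, 27.2 and 22.5 for 5 to 6 windows and 37.3 and 20.8 for at least 7. In pre-iPSCs it was 13.8 and 14.5, 17.3 and 13.6, and 13.7 and 12.9, and in iPSCs 8.04 and 6.63, 6.80 and 6.42, and 7.87 and 5.01. Only the step from 4 to 5 or 6 windows in MEFs was upward in both libraries.

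FPKM was then compared between cell types with limma on log2(FPKM + 1), where genes passed if the adjusted p was under 0.05 with at least a 2-fold change. From MEFs to pre-iPSCs, genes that gained a domain over the TSS were more often higher, and genes that lost one more often lower. Of 206 genes with a gained domain 182 were tested, and 53 of these (29.1%) rose and 7 fell, where 7.39% of all genes tested rose. Of 1641 genes with a lost domain 1611 were tested, and 271 (16.8%) fell and 20 rose, where 9.0% of all genes tested fell. The median log2 change was 0.81 for gained and -0.33 for lost domains, against -0.04 for all genes tested. Genes with a domain in both had 13 that rose and 16 that fell of 226. Without pre-iPSC replicate 1 the counts were 33 gained genes that rose and 159 lost genes that fell, without pre-iPSC replicate 2 they were 35 and 109, and with no filter on low FPKM 0 genes of either kind passed.

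The genes that rose most with a gained domain were Pou5f1, Tdh, Fbxo15, Msln and Podxl. The Pou5f1 domain is in the high H3 set, and H3K4me3 over it stood at 11.1 and 1.46 times the mean window in MEFs. Its absence in MEFs thus rests on replicate 2. Pou5f1 had an FPKM of 0 and 0.50 in MEFs and 378 and 3184 in pre-iPSCs, far above the MEF libraries but with the pre-iPSC libraries far apart from each other, and reads of the retroviral Oct4 cannot be told apart from those of the gene here. Tdh, a threonine dehydrogenase of pluripotent cells, was listed at 0 in both MEF libraries and stood at 171 and 100 in pre-iPSCs (log2 change 7.04 ± 0.39 SE, limma adjusted p = 0.000373). Fbxo15, a target of Oct4, stood at 0 and 0.104 against 54.7 and 70.3. The surface genes Msln (0.584 and 3.08 against 94.6 and 119) and Podxl (0.0910 and 0.0987 against 56.2 and 35.8) rose as well. In none of these genes did the groups overlap, which choosing the largest called rises largely fixed in advance. Over the Msln domain H3K4me3 was 31 and 39 reads for MEFs, 115 and 88 for pre-iPSCs and 35 and 61 for iPSCs.

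The genes that fell most with a lost domain were Acta2, Cxcl12, Fbln5, Col1a2 and Col8a1. Acta2 (smooth muscle actin) had an FPKM of 5762 and 9151 in MEFs and 82.6 and 61.7 in pre-iPSCs (log2 change -6.65 ± 0.50 SE, limma adjusted p = 0.000887), and its domain of 4 windows held 136 and 88 reads for MEFs, 39 and 62 for pre-iPSCs and 26 and 33 for iPSCs. The chemokine Cxcl12 stood at 182 and 290 against 5.88 and 1.89, the elastic fibre gene Fbln5 at 66.9 and 142 against 2.54 and 0.512, Col1a2 at 1206 and 1761 against 56.3 and 19.5, and Col8a1 at 84.8 and 147.4 against 3.10 and 1.01. In all 5 the pre-iPSC libraries lay below both MEF libraries, which choosing the largest called falls largely fixed in advance.

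Some genes went against their domain. Fosb and Fos, immediate early genes of the AP-1 factor, lost the domain yet rose from 28.2 and 1.01 to 181 and 102 (log2 change 4.16 ± 0.77 SE, limma adjusted p = 0.0117) and from 20.9 and 2.81 to 185 and 107 (3.95 ± 0.59, adjusted p = 0.00564). The reads over the Fos domain were 145 and 131 in MEFs and 119 and 90 in pre-iPSCs, so the mark was still there. Dusp14, a phosphatase, lost the domain and rose from 19.6 and 14.1 to 110 and 181 (log2 change 3.01 ± 0.40). Myc kept its domain and rose from 57.8 and 36.3 to 337 and 816, where reads of the retroviral c-Myc cannot be told apart from those of the gene.

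From pre-iPSCs to iPSCs, few genes with a gained domain rose. Of 262 genes with a gained domain 221 were tested, and 6 (2.71%) rose and 16 (7.24%) fell, where 3.91% of all genes tested rose and 4.71% fell. Of 350 genes with a lost domain 334 were tested, and 48 (14.4%) fell and 3 rose, with a median log2 change of -0.44 against -0.09 for all genes tested. Both numbers rest on the iPSC libraries: without iPSC replicate 1 they were 1 gained gene that rose and 1 lost gene that fell, and without iPSC replicate 2 they were 0 and 0. Without pre-iPSC replicate 1 they were 5 and 26 and without pre-iPSC replicate 2 they were 2 and 26, without MEF replicate 1 they were 21 and 85 and without MEF replicate 2 they were 20 and 85, and with no filter on low FPKM 1 and 5. Quantile normalization gave 11 gained genes that rose and 17 that fell. In the main fit, genes with a domain in both had 3 that rose and 6 (8.11%) that fell of 74 tested.

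The gained genes that rose most were B3gnt7, a glycosyltransferase, with an FPKM of 7.98 and 2.97 for pre-iPSCs and 52.5 and 49.6 for iPSCs (log2 change 3.12 ± 0.45 SE, limma adjusted p = 0.0073), the cadherins Cdh3 (1.37 and 0.243 against 9.47 and 7.04) and Cdh1 (27.01 and 6.56 against 71.9 and 54.2), and Itpka (0 and 0.0833 against 2.73 and 2.64). Over B3gnt7 the reads were 65 and 59 for MEFs, 74 and 59 for pre-iPSCs and 80 and 76 for iPSCs, a small step that carried every window over the threshold. Kirrel2, an adhesion gene, lost the domain and rose from 0.0258 and 0 to 5.39 and 4.07.

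Among the genes that fell most, Msln, Mal, Gfra2 and Ntn1 lost a domain of pre-iPSCs. Msln returned to 0.188 and 0.342 (log2 change -6.40 ± 0.43 SE, limma adjusted p = 0.000706), Mal, a membrane raft protein, went from 20.7 and 42.5 to 0.0899 and 0.0340, the Gdnf family receptor Gfra2 from 19.04 and 15.8 to 0 and 0.126, and the guidance cue Ntn1 from 87.9 and 15.9 to 0.955 and 2.03. Nccrp1 gained a domain in iPSCs and fell from 121 and 114 to 0.595 and 0.184 (log2 change -6.43 ± 0.37 SE, limma adjusted p = 0.000484). Its reads were 81 and 73 for pre-iPSCs and 78 and 70 for iPSCs, so the gain of that domain was a matter of single windows. Rac3 (63.4 and 51.0 to 5.21 and 6.75) and Cd24a (249 and 148 to 26.6 and 23.4) also gained a domain and fell.

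Between MEFs and iPSCs, which share libraries with the comparisons above, the lost domains again came with lower RNA. Of 1699 genes with a lost domain 1671 were tested, and 460 (27.5%) fell and 42 rose, where 15.5% of all genes tested fell. Of 176 genes with a gained domain 129 were tested, and 27 (20.9%) rose and 19 (14.7%) fell, where 10.3% rose. Genes with a domain in both also fell more often than all genes tested, 32 of 166 (19.3%), with 12 that rose. The median log2 change was -0.57 for lost domains, 0.15 for gained ones, -0.17 for domains in both and -0.14 for all genes tested. Quantile normalization changed the lost genes to 387 that fell and 91 that rose. Without iPSC replicate 1 the counts were 96 lost genes that fell and 9 gained genes that rose, without iPSC replicate 2 they were 220 and 10, and with no filter on low FPKM they were 81 and 4.

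Fgf4 was listed at 0 in both MEF libraries and stood at 23.1 and 13.9 for pre-iPSCs and 54.8 and 56.3 for iPSCs, so that its domain and its RNA were both found in the reprogrammed cells only (iPSC against MEF log2 change 5.82 ± 0.38 SE, limma adjusted p = 0.000539). Cdh1 stood at 0.111 and 0 in MEFs, B3gnt7 at 0.0389 and 0.211 and Ndufa4l2, a mitochondrial gene, at 0.122 and 0.842, and all 3 rose in iPSCs. Acta2 fell to 35.4 and 63.2 in iPSCs (log2 change -7.23 ± 0.50 SE, limma adjusted p = 0.000661). Thbs1 (1658 and 607 to 9.88 and 32.8), Ccdc80 (56.9 and 423 to 1.24 and 3.57), the protease Prss23 (360 and 348 to 4.06 and 11.5) and the fatty acid desaturase Fads3 (81.1 and 73.3 to 0.919 and 1.55) fell with their MEF domains. Tinagl1 and Trim47 gained a domain in iPSCs and fell, from 60.5 and 144 to 3.74 and 3.68 and from 23.1 and 35.0 to 1.01 and 1.40.

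**Figure D4:**
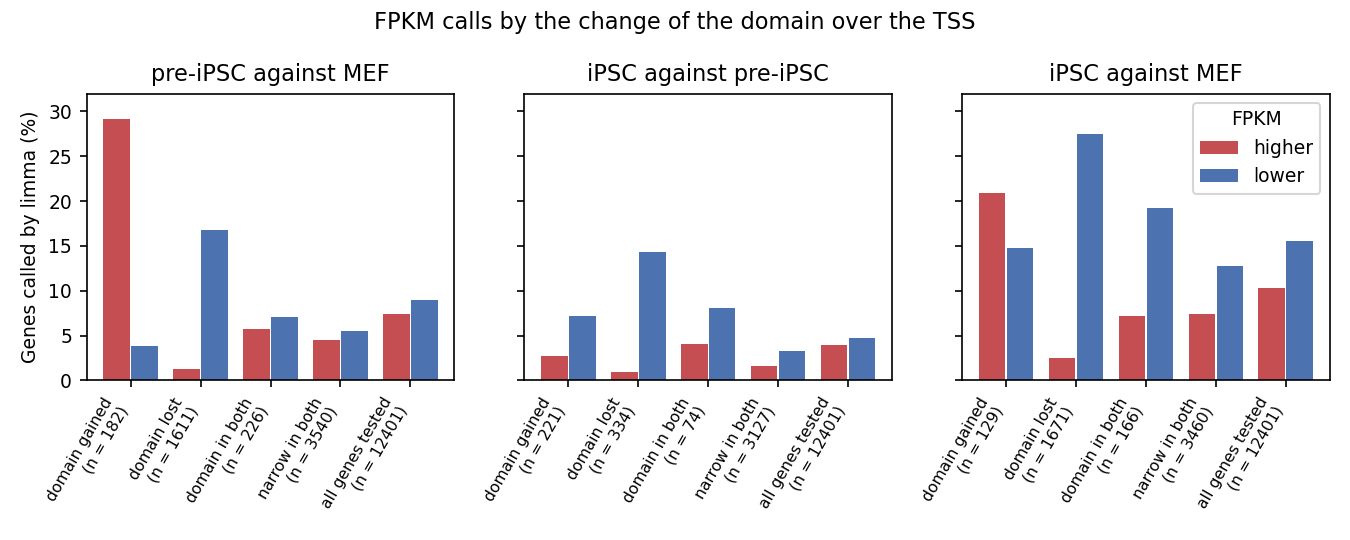
Share of genes called higher (red) or lower (blue) in FPKM by limma (y, percent) in 3 comparisons, by the change of the domain over the TSS (x), with the number of genes tested in brackets. Lost domains show 16.8%, 14.4% and 27.5% of genes lower, and gained domains 29.1%, 2.71% and 20.9% higher.

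Over the lists, the RNA of genes with and without a domain moved as a group in matrix genes. From MEFs to iPSCs 34 of 36 extracellular matrix and fibroblast genes fell and 0 rose, where 15.5% of all genes tested fell and 10.3% rose, and from MEFs to pre-iPSCs 28 fell, where 9.0% fell and 7.39% rose. Of 72 mesenchymal transcription factors tested 49 fell and 5 rose from MEFs to iPSCs, and of 30 Hox genes 23 fell and 1 rose. All 29 housekeeping genes missed the threshold in every comparison, although 16 had a MEF domain and 5 an iPSC domain. Of 26 pluripotency regulators 23 rose from MEFs to iPSCs and 9 from MEFs to pre-iPSCs, most of them with no domain. Immediate early genes split, with 7 of 27 higher and 2 lower in pre-iPSCs than in MEFs, and 1 higher and 7 lower in iPSCs than in pre-iPSCs, where 3.91% and 4.71% of all genes tested passed.

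H3K27me3 over the domains differed between the cell types in level. In MEF domains the median was 0.294 and 0.322 times the mean window, below narrow MEF runs (0.420 and 0.446). In pre-iPSC domains it was 0.608 and 0.463, again below narrow runs (0.784 and 0.673). In iPSC domains it was 1.43 and 1.20, above narrow iPSC runs (1.13 and 0.994). The order between domains and narrow runs was thus turned in iPSCs, in both libraries.

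Genes under domains that carried both marks had a low median FPKM. Setting aside domains of high H3, H3K27me3 was at least 1.5 times the mean window in both libraries in 23 MEF domains (1.28%), 53 pre-iPSC domains (9.83%) and 158 iPSC domains (38.2%). With each library taken alone, 13.3% and 14.6% of narrow MEF runs, 18.8% and 21.9% of narrow pre-iPSC runs and 34.3% and 29.2% of narrow iPSC runs reached it. Of all domains, high H3 included, these shares were 2.47% and 2.80%, 15.4% and 17.0%, and 49.5% and 44.6%. In iPSCs the 101 genes of these 158 domains had a median FPKM of 0.595 and 0.578, against 27.9 and 23.7 for the 197 genes of the 214 domains that were below 1.5 in both libraries. In pre-iPSCs the medians were 0.303 and 0.200 against 18.8 and 18.6, and in MEFs 0.942 and 0.546 against 22.7 and 17.6. Mean length was about the same in both kinds of iPSC domain (4.47 and 4.44 windows).

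The iPSC domains with both marks included developmental regulators, named here as examples chosen after their values were seen. Among them were the forebrain genes Nr2e1 and Fezf2, Gata2 of blood progenitors, the homeobox genes Hmx2, Hoxb5 and Hoxb7, Pax7 of muscle and neural crest, the hedgehog ligands Ihh and Dhh and the synaptic gene Nptx1. Over Gata2 H3K27me3 was 53 and 73 reads for MEFs, 98 and 88 for pre-iPSCs and 111 and 70 for iPSCs. Pre-iPSC domains with both marks lay over Dbx1, Nkx2-1, Pax2, Cdx2 and Lbx1, and MEF domains over Hoxc9, Pax9, Osr2, Mkx and Shox2. Myc, too, was among the iPSC domains with both marks, at 1.85 and 2.35 times the mean window. Over the merged Myc domain H3K27me3 was 15 and 11 reads for MEFs, 65 and 78 for pre-iPSCs and 71 and 89 for iPSCs, while H3 was 77 and 129, 1192 and 178, and 652 and 249, so both stood lowest in MEFs.

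**Figure D5:**
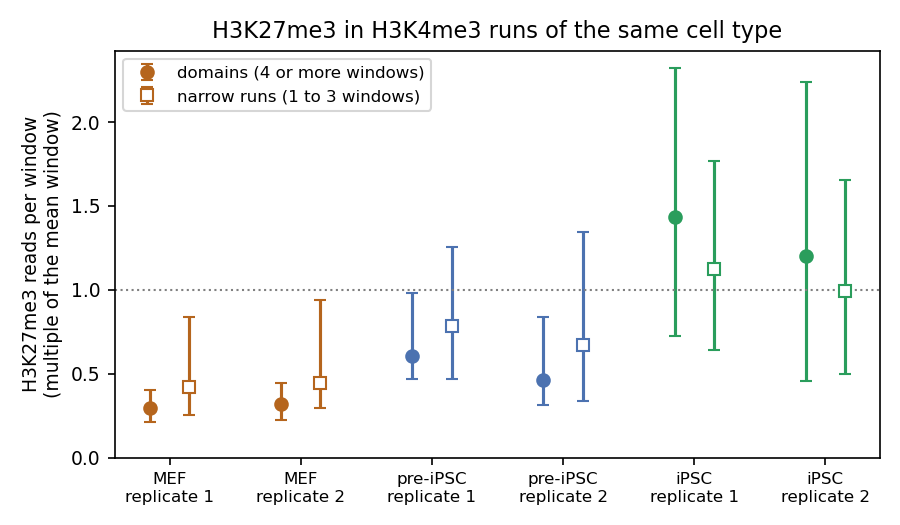
H3K27me3 reads per window, as multiples of the mean window (y), in domains (filled circles) and narrow runs (open squares) of the same cell type, for each library (x), as the median with bars from the lower to the upper quartile. Medians rise above 1 in the domains of both iPSC libraries (1.43 and 1.20) and lie at 0.294 and 0.322 in MEF domains.

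The change of H3K27me3 was tested with edgeR on reads over all H3K4me3-marked regions at a false discovery rate of 0.05. From MEFs to pre-iPSCs, 384 of 1445 regions with a lost domain (26.6%) rose and 6 fell, where 9.25% of all regions tested rose. Of 286 regions with a gained domain 53 (18.5%) fell and 14 rose, where 3.86% fell. From MEFs to iPSCs 694 of 1527 regions with a lost domain (45.4%) rose and 3 fell, where 16.4% of all regions tested rose, and 49 of 253 regions with a gained domain rose and 16 fell, where 3.52% fell. From pre-iPSCs to iPSCs 55 of 423 lost regions (13.0%) rose and 1 fell, where 1.70% rose and 0.160% fell. Of gained regions 24 of 308 (7.79%) rose and 0 fell, so the share called higher passed that over all regions in both kinds. The median log2 change was 0.43 in lost and 0.12 in gained regions, against 0.09 over all. Regions with a domain hold at least 4 windows, and shares were not matched for length or reads. Of 2317 such regions 2199 passed the count filter, against 13411 of 24676 narrow in every cell type. Regions with a domain in both cell types also rose, 53 of 262 (20.2%) from MEFs to pre-iPSCs and 78 of 180 (43.3%) from MEFs to iPSCs, so the rise was not limited to lost domains.

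The median log2 change of all regions tested was 0.19 in pre-iPSCs and 0.28 in iPSCs against MEFs. It was 0.88 and 1.12 in regions with a lost domain and 0.68 and 0.96 in regions with a domain in both cell types compared. In regions with a gained domain it was -0.13 and 0.15, below that of all regions. Scaling on these regions themselves gave 38 gained regions that rose and 34 that fell from MEFs to iPSCs, and 1745 and 1268 of all regions, in place of 2559 and 549. From MEFs to pre-iPSCs it gave 1097 and 990 of all regions in place of 1444 and 602. DESeq2 called 135, 8 and 228 lost regions higher in the comparisons of pre-iPSCs with MEFs, iPSCs with pre-iPSCs and iPSCs with MEFs, against 263 (1.68%), 25 (0.160%) and 410 (2.63%) of all regions. Without MEF replicate 1 or pre-iPSC replicate 1 the lost regions that rose from MEFs to pre-iPSCs were 240 and 236, without iPSC replicate 1 those from MEFs to iPSCs were 450, and from pre-iPSCs to iPSCs they were 35, 9 and 22 without pre-iPSC replicate 1, pre-iPSC replicate 2 and iPSC replicate 1.

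Among the genes named, Fads3 had the largest rise among regions with a lost domain in pre-iPSCs, with 6 and 4 H3K27me3 reads for MEFs, 47 and 49 for pre-iPSCs and 58 and 59 for iPSCs (log2 change 3.30, edgeR false discovery rate 2.57e-08), alongside the fall of its RNA, with 111 and 108 H3K4me3 reads for MEFs and 57 and 54 for pre-iPSCs. Atxn1 (6 and 5 against 41 and 55 reads) and the circadian repressor Nfil3 (6 and 5 against 34 and 56) came next. In iPSCs Zfp703 stood at 102 and 62 reads against 6 and 6 in MEFs. None of these groups overlapped, which choosing the largest called rises largely fixed in advance. H3 over the Fads3 domain was 78 and 103 reads for MEFs, 579 and 125 for pre-iPSCs and 408 and 159 for iPSCs, so total H3 also stood lowest in MEFs there, and its part in the rise of H3K27me3 was not tested.

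The largest falls of H3K27me3 over merged domains included Fgf4 and Trim71, with domains in pre-iPSCs and iPSCs, and Fbxo15 and Tcfap2a, with domains in pre-iPSCs only. Fgf4 went from 85 and 82 H3K27me3 reads in MEFs to 30 and 26 for pre-iPSCs and 17 and 18 for iPSCs (iPSC against MEF log2 change -2.19, edgeR false discovery rate 1.37e-07). Trim71, an RNA-binding protein of early embryos, went from 86 and 76 to 18 and 18 and then 20 and 13, and Fbxo15 from 52 and 78 to 18 and 17 and then 15 and 13. Tcfap2a, a factor of surface ectoderm, went from 118 and 127 to 23 and 22 in pre-iPSCs and stood at 116 and 88 in iPSCs. Nccrp1, which had its domain in iPSCs only, had the same shape, with 62 and 80, 13 and 14, and 46 and 53, which is the reverse of its FPKM.

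Between pre-iPSCs and iPSCs the named rises were over Tbx15, a limb and skeletal factor (14 and 6 against 57 and 54 reads), the ephrin Efna5 (9 and 5 against 40 and 34) and Irf2, an interferon response factor (9 and 6 against 46 and 33). Tbx15 also lost its pre-iPSC domain and went from an FPKM of 44.7 and 21.1 to 1.22 and 2.27 (log2 change -3.56, limma adjusted p = 0.00485). Gli2, a hedgehog effector, had fewer H3K27me3 reads in iPSCs (20 and 16) than in pre-iPSCs (32 and 63).

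The replicates of total H3 over the domains differed. Its median over domains of the same cell type was 0.637 and 0.592 for MEFs, 2.06 and 0.638 for pre-iPSCs and 2.11 and 0.821 for iPSCs, so replicate 1 of both reprogrammed cell types stood apart. From MEFs to pre-iPSCs and from MEFs to iPSCs, the median edgeR log2 change of lost regions was 1.16 and 0.87 (1.32 and 0.75 over all regions). That fit was scaled on 10-kb bins. With DESeq2, scaled on the regions tested, it was -0.01 and 0.14 (0.02 and 0.01 over all regions). With edgeR scaled on the regions tested it was -0.003 and 0.16 (0.03 and 0.02 over all regions). The size of the H3 change thus depended on the scaling more than on the tool. Among 2317 tested regions with a domain edgeR called 0 in any comparison (0 of all 26992 regions tested), and DESeq2 called 0 in each. These 0 calls do not show that H3 was unchanged. At an unadjusted p below 0.05 there were 20, 0 and 1 of the 2317 from MEFs to pre-iPSCs, pre-iPSCs to iPSCs and MEFs to iPSCs, against 3292, 121 and 322 of all 26992. Without pre-iPSC replicate 2, 1150 regions with a domain (49.6%) were called higher from MEFs to pre-iPSCs, against 18343 (68.0%) of all regions. The levels of H3K27me3 and H3K4me3 given here are not divided by H3.

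H3K9me3 is the mark of constitutive heterochromatin. Its median over domains of the same cell type was 0.480 times the mean window for MEFs, 0.733 for pre-iPSCs and 1.11 for iPSCs, with 1 library each and no test. In narrow runs it was 0.554, 0.698 and 0.983. It was at least 1.5 times the mean window in 1.15% of MEF, 8.85% of pre-iPSC and 25.5% of iPSC domains, against 5.66%, 13.7% and 22.4% of narrow runs. Of all merged domains 15 for MEFs, 17 for pre-iPSCs and 23 for iPSCs reached 5 times the mean window, and most of these belong to the set of high H3.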

How the data were processed

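The files cover 27 libraries (21 of chromatin, 6 of RNA). For chromatin, the authors used Bowtie 1.0.1 and the mm9 build and deposited read counts per nucleosome called by GeneTrack, so reads outside called nucleosomes were not used here. For RNA, the authors deposited FPKM of 20156 genes from TopHat2 2.0.4 and Cufflinks 2.0.2 in 2 tables, 1 per replicate, normalized separately, and RNA depth is unknown. The labels call the libraries of the modified histones ChIP-Seq and those of H3 MNase-ChIP-Seq, while the study's methods describe MNase digestion for all.

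Nucleosome centres, 73 bp after the start of each call, were counted in 1-kb windows. Domains were runs of at least 4 windows with at least 15 reads in both replicates, and domains of different cell types that shared a window were merged. A gene had a domain where its RefSeq TSS lay inside. A domain had high H3 where both H3 libraries of a cell type with the domain held at least 2 times their autosomal mean per window. The members and gene lists were chosen with earlier results of these data known, and H3K4me3, which chose the members, was described and not tested. Intervals for shares cover counting error only and were not used.

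FPKM of genes with a mean of at least 0.5 (12401 genes) was tested with limma 3.58.1 in R 4.3.3 on log2(FPKM + 1), so changes of low genes are understated, with the table as a term. Adjusted p-values are over all genes tested, and genes passed at 0.05 with a log2 change of at least 1. H3K27me3 and H3 reads over 26993 H3K4me3-marked regions were tested with edgeR 4.0.16 (quasi-likelihood), with library sizes and TMM factors from autosomal 10-kb bins. DESeq2 1.42.0 was an alternative and was scaled on the regions tested, so it differs from the main fit in tool and scaling. H3K9me3 had 1 library per cell type and was not tested. An exact permutation test of 2 against 2 libraries cannot go below p = 0.33, so none was used for single values. Windows, sequences and figures were made with Python 3.11.15, NumPy 2.4.6, pandas 2.3.3 and Matplotlib 3.10.9, and the fits were tested on simulated data.

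Genes named are, for each list, up to 4 members with the longest domain, the genes of the 5 longest domains per cell type, the 5 largest rises and falls and up to 3 genes against the domain per comparison, the genes of the 3 domains with the largest rise and fall of H3K27me3 per comparison, and 1 domain on each side of each limit. Other names are examples chosen after their values were seen. A list of 16 long non-coding RNAs had 0 genes in the FPKM tables. Alternatives without domains of high H3, or with equal numbers of passing windows, were chosen after seeing the data.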

Additional observations from a re-analysis of the deposited data

Results flagged for a closer look

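H3K9me3 was measured in 1 library per cell type and enters no tested comparison. In 2 merged domains its level passed 5 times the mean window in the reprogrammed cells while the MEF library stayed below 1.5 times. Over the domain of Pou5f1, Tcf19 and Cchcr1 it was 18.8 times the mean window in pre-iPSCs and 7.97 in iPSCs, against 0.949 in MEFs. The title of the MEF H3K9me3 library has no replicate mark, like those of replicate 1. The replicate 1 MEF libraries of the other antibodies stood at 12.4 (H3), 11.1 (H3K4me3) and 10.4 (H3K27me3) there. Those of replicate 2 stood at 0.932, 1.46 and 1.46. Over the merged domain at chr9:123841001-123845000, which holds no RefSeq TSS, H3K9me3 was 13.8 times the mean window in pre-iPSCs and 38.6 in iPSCs, against 1.48 in MEFs. H3 over this second domain stood at 10.2 and 1.41 for MEFs, 4.13 and 9.44 for pre-iPSCs and 11.5 and 9.63 for iPSCs. Its H3K4me3 was 8.23 and 1.03 and its H3K27me3 3.41 and 1.41 in MEFs, so the MEF H3K9me3 library again stood close to replicate 2. A difference between MEF libraries and a difference between cell types cannot be told apart here, and neither has a replicate check.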

How the results depend on the processing

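The 38 FPKM changes of named genes and 18 H3K27me3 changes of named regions kept their direction under every alternative run. Choosing the largest called changes largely fixed this in advance. Of the 38 FPKM changes, 27 fell short of a call under at least 1 other setting, as did 5 of the 18 H3K27me3 changes. With other settings, FPKM calls held in 124 cases and fell short in 28, and with 1 library left out in 196 and 32, while H3K27me3 calls held in 67 and 97 cases and fell short in 5 and 11. A limit of 20 reads gave 480 MEF, 57 pre-iPSC and 28 iPSC domains, with 448 merged domains of MEF only, 26 of pre-iPSC only and 7 of iPSC only and 4 in all 3. A minimum of 5 windows gave 761, 205 and 154, with 658, 105 and 83 in 1 only and 26 in all 3. Scaling to the smallest library gave 283 pre-iPSC and 194 iPSC domains, with 123 and 86 in 1 only and 33 in all 3. Equal numbers of passing windows, chosen after seeing the data, gave 1197 MEF domains, and 906 merged domains of MEF only. With the limit on 1 replicate alone, MEF domains numbered 2539 to 4071, pre-iPSC domains 1724 to 2142 and iPSC domains 1768 to 1830. Those found in 1 cell type only were 1515 to 2864, 649 to 1091 and 813 to 961. Those in MEFs and pre-iPSCs were 383 to 524, in MEFs and iPSCs 290 to 322, in pre-iPSCs and iPSCs 183 to 304 and in all 3 347 to 350, of 4743 to 5853.

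With no filter on low FPKM, gained genes that rose and lost genes that fell were 0 and 0 from MEFs to pre-iPSCs, 1 and 5 from pre-iPSCs to iPSCs, and 4 and 81 from MEFs to iPSCs. Quantile normalization gave 11 gained genes that rose from pre-iPSCs to iPSCs. Where 1 library was left out, the lone library was assumed to vary like the other groups. From MEFs to pre-iPSCs gained genes that rose were then 33 to 62 and that fell 0 to 12, and lost genes that rose 9 to 70 and that fell 109 to 328. From pre-iPSCs to iPSCs these were 0 to 21, 1 to 35, 0 to 5 and 0 to 85, and from MEFs to iPSCs 9 to 26, 2 to 23, 1 to 96 and 96 to 502. For H3K27me3, DESeq2 called 135, 8 and 228 lost regions that rose, and factors from the regions gave 34 gained regions that fell from MEFs to iPSCs. With 1 library left out, gained regions that rose, gained that fell, lost that rose and lost that fell were 4 to 17, 35 to 54, 236 to 416 and 1 to 6 from MEFs to pre-iPSCs, 5 to 32, 0 to 1, 9 to 62 and 0 to 1 from pre-iPSCs to iPSCs, and 31 to 55, 8 to 14, 450 to 697 and 2 to 4 from MEFs to iPSCs. H3 calls among the 2317 regions with a domain were 0 to 1150, 0 to 0 and 0 to 1, while without pre-iPSC replicate 2 18343, 526 and 41 of all 26992 regions were called higher and 676, 3008 and 0 lower.

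The labels tie no number to a shared culture, and not every pair of same-numbered libraries deviated together. The numbers were thus not taken to pair the chromatin libraries. The main FPKM fit did hold the table, and so the replicate number, as a term, because the tables were normalized separately. Between MEFs and pre-iPSCs, MEFs and iPSCs, and pre-iPSCs and iPSCs the deviations correlated at 0.346, -0.205 and 0.112 for RNA, 0.00138, -0.0198 and 0.139 for H3K27me3 and -0.152, -0.0935 and 0.758 for H3, where same-numbered pre-iPSC and iPSC libraries did go together. With no replicate block, gained genes that rose and lost genes that fell were 52 and 262, 4 and 49, and 23 and 429, and lost genes that rose from MEFs to iPSCs were 27 in place of 42. With a replicate block, lost regions in which H3K27me3 rose were 379, 54 and 684, and H3 gave 0 calls. Reads per window and 2 libraries per group limit how finely domains at the limits can be told apart.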
